A study of Mus musculus with 6 samples.

Results

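The interferon regulatory factors are DNA-binding proteins that share an N-terminal domain recognising GAAA repeats. The data described here are the transcripts of 8 of them, Irf1, Irf2, Irf3, Irf4, Irf5, Irf7, Irf8 and Irf9, which were taken by symbol from a count table of 23608 rows. Of these 8 genes, 6 passed the filter on low counts and were tested, whereas Irf4 and Irf8 did not pass it. The libraries were made from leukaemia cells of the mouse, transformed with the truncated AML1-ETO fusion protein AE9a. Fetal liver cells that carried 1 floxed Usp18 copy and a tamoxifen-activated Cre under the ubiquitously active ubiquitin C promoter (Usp18+/f UBCER-Cre) were transduced with a retrovirus encoding AE9a and GFP, and the resulting cells were transplanted into C57BL/6 recipients. Once the recipients were sick they were injected with oil or with tamoxifen, and 3 days after the first injection GFP+ Lin- c-Kit+ cells of the spleen were sorted for bulk RNA-seq, a gate meant to keep transduced cells and remove cells of the recipient. Both groups therefore carried AE9a, the floxed copy and Cre, the 3 oil libraries being labelled Usp18+/f and the 3 tamoxifen libraries Usp18+/Δ. The oil group received no tamoxifen, so loss of the floxed copy, active Cre and the drug cannot be told apart. The paper describes lethal irradiation of the mice given transduced cells, and sub-lethal irradiation of those given AE9a leukaemia cells in a secondary transplant. Any blood cells of the recipients that remained carry no GFP. The comparison asks how the transcripts of the family differed 3 days after induced loss of 1 copy of Usp18, which encodes a protease that limits type I interferon signalling.

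Interferon regulatory factors act at both ends of the interferon pathway. IRF3 and IRF7 are phosphorylated downstream of sensors of foreign nucleic acid and switch on interferon genes, and IRF5 acts downstream of Toll-like receptors. Secreted interferon binds its receptor, after which IRF9 joins STAT2 in the complex ISGF3, which binds interferon-stimulated response elements, and IRF7 is itself a target of this complex. IRF1 is induced by interferon through gamma-activated sites and activates antigen presentation genes, IRF2 competes with IRF1 for the same DNA, and IRF4 and IRF8 direct the development of lymphoid and myeloid cells.

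The libraries held between 17118964 and 20741399 counts, and 3 counts corresponded to between 0.145 and 0.177 CPM, which expresses each gene's count against a common total for the tested genes. Usp18, which is itself an interferon-stimulated gene, went against the label of the treated group. Its level was 9.12 CPM in oil 1, 10.95 CPM in oil 3 and 11.2 CPM in oil 4, against 15.1, 27.99 and 19.4 CPM across tamoxifen 1, 2 and 4, so the treated libraries are called here by their label. The log2 fold change of Usp18 was 0.998 ± 0.23 (SE) with an adjusted p-value of 0.0739 in edgeR's quasi-likelihood test, which fell to 0.00654 without tamoxifen 4, and it is a count over the whole gene that does not show the deleted part separately. Kit, the receptor used in the sort, was present in all 6 libraries at 439 CPM or more, whereas Ptprc, which encodes the leukocyte antigen CD45, reached at most 0.709 CPM. Cd34, a progenitor marker, was at 8.43 to 11.7 CPM in oil and at 41.8 to 134 CPM in the libraries labelled tamoxifen.

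None of the 6 tested family members passed an adjusted p-value of 0.05 between the groups in the edgeR test, where 2.01% of all 11614 tested genes did. With all 6 libraries the DESeq2 Wald test called 1 member and limma-voom none. At an unadjusted p-value under 0.05, 4 of the 6 members were counted, all with the higher level in tamoxifen, beside 20.6% of all tested genes in either direction and 12.6% in that direction. These were Irf1, Irf5, Irf7 and Irf9, and they were also the members whose 3 libraries labelled tamoxifen all lay above the 3 oil libraries, an ordering seen in 13.3% of all tested genes, while the groups were apart in either direction in 25.1%. The median log2 fold change of the 6 members was 0.40, beside 0 for all tested genes. Irf2 and Irf3 had overlapping groups. In bulk libraries such as these, a cell type that is more or less frequent and a cell that holds more or less of an RNA cannot be told apart.

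**Figure D1:**
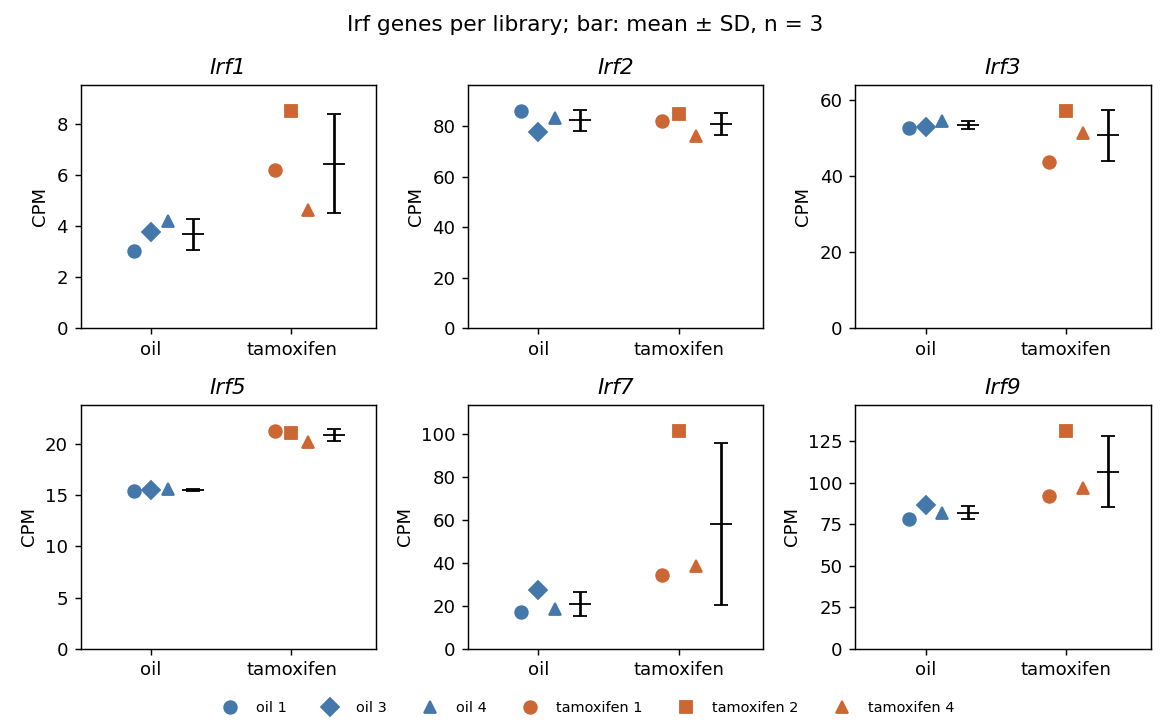
Levels of the 6 tested Irf genes in each library, in CPM on an axis that starts at 0, with oil in blue and tamoxifen in orange and the mean ± SD (n = 3) beside the points. For Irf1, Irf5, Irf7 and Irf9 every tamoxifen point lies above every oil point, Irf7 in tamoxifen 2 stands at 101 CPM, and Irf2 and Irf3 overlap.

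Among the members that switch on interferon genes, Irf7 had the largest log2 fold change of the 6. It was measured at 16.8 CPM in oil 1, 27.2 CPM in oil 3 and 18.5 CPM in oil 4. The treated libraries held 34.1 CPM in tamoxifen 1, 101 CPM in tamoxifen 2 and 38.7 CPM in tamoxifen 4. All 3 of the latter lay above the highest oil library, and tamoxifen 2 stood well above the other two of its group. The means were 20.8 ± 5.56 and 58.1 ± 37.6 CPM (SD, n = 3 each), and the log2 fold change was 1.48 ± 0.41 (SE, 95% confidence interval 0.53 to 2.42) with an unadjusted p-value of 0.00708 and an adjusted p-value of 0.114 in edgeR. Without tamoxifen 2 the log2 fold change of Irf7 was 0.80, and without tamoxifen 4 it was 1.69 with an adjusted p-value of 0.00561.

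Irf3, which encodes the constitutively present partner of IRF7, did not share this pattern. Its level was 52.7, 52.9 and 54.5 CPM across oil 1, 3 and 4, compared with 43.7, 57.1 and 51.4 CPM across tamoxifen 1, 2 and 4. The oil libraries lay close together and inside the span of the libraries labelled tamoxifen. Between the groups Irf3 had a log2 fold change of -0.07 ± 0.11 (SE, 95% confidence interval -0.33 to 0.18), with an adjusted p-value of 0.717 in edgeR. Irf3 lies on chromosome 7 (44997648 to 45002848, plus strand) and shares 88 exon bases with Bcl2l12 on the other strand, which had a log2 fold change of -0.15.

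Irf5 had the smallest spread within groups. It was at 15.4, 15.5 and 15.6 CPM across oil 1, 3 and 4, compared with 21.3, 21.1 and 20.2 CPM across tamoxifen 1, 2 and 4. The gap between the groups was therefore larger than the whole range within either of them. The means were 15.5 ± 0.110 and 20.9 ± 0.579 CPM (SD, n = 3 each), and the log2 fold change was 0.43 ± 0.11 (SE, 95% confidence interval 0.17 to 0.68). Its adjusted p-value was 0.0965 in edgeR and 0.0216 in the DESeq2 Wald test, which called 8.13% of all genes and, of the family, Irf5 alone. The exons of Irf5 on chromosome 6 (29526625 to 29541871, plus strand, GRCm38) share 411 bases, 14.1% of their length, with exons of Tnpo3 on the opposite strand, and reads from the shared bases cannot be told apart without strand. Tnpo3, a nuclear import receptor, was at 163 to 168 CPM in oil and 137 to 171 CPM in tamoxifen, with a log2 fold change of -0.12 and an adjusted p-value of 0.483.

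Irf9, the DNA-binding subunit of ISGF3, was at 78.3 CPM in oil 1, 86.4 CPM in oil 3 and 81.5 CPM in oil 4. It was at 92.0, 131 and 97.0 CPM across tamoxifen 1, 2 and 4. The groups did not overlap, and tamoxifen 2 was again the highest library. The means were 82.1 ± 4.04 and 107 ± 21.3 CPM (SD, n = 3 each), and the log2 fold change was 0.38 ± 0.14 (SE, 95% confidence interval 0.058 to 0.70) with an adjusted p-value of 0.200 in edgeR. Without tamoxifen 2 the log2 fold change of Irf9 was 0.20, and without tamoxifen 4 it was 0.44 with an adjusted p-value of 0.0225. On chromosome 14 (55603571 to 55610030, plus strand) the exons of Irf9 share 123 bases with Rnf31 on the same strand, which is 2.28% of their length, and Rnf31 had a log2 fold change of 0.02.

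Irf1 and Irf2 are printed here with the promoter stretches that hold the matches to 2 motifs of interferon signalling, since both are classed as interferon-inducible and only Irf1 was higher in every library labelled tamoxifen. The sequences are from RefSeq, build GRCm38.p6, plus strand, and run from 5′ to 3′. The capitals mark GAAANNGAAA, the core of the interferon-stimulated response element, or TTCNNNGAA, the gamma-activated site, and the matches in Irf2 do not overlap each other. The stretch of Irf1 is chr11:53769894-53769973 and that of Irf2 is chr8:46739495-46739554, which also lies over a noncoding exon of Gm16675 on the other strand.
Irf1: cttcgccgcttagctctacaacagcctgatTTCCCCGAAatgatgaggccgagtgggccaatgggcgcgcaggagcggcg
Irf2: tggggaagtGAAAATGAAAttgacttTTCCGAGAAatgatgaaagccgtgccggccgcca
The gamma-activated site of Irf1 starts 90 bases before the annotated start of the transcript. In Irf2 the response element core starts 241 bases and the gamma-activated site 224 bases before the start.

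Irf1, the activator of this pair, had the lowest level per kilobase of the 6 tested members. It was at 3.04, 3.78 and 4.22 CPM across oil 1, 3 and 4, compared with 6.20, 8.502 and 4.64 CPM across tamoxifen 1, 2 and 4. The groups did not overlap, but the nearest libraries were separated by less than their counting error. Those libraries, oil 4 and tamoxifen 4, had exact Poisson 95% intervals of 3.36 to 5.24 and 3.70 to 5.75 CPM, which cover counting error only. The log2 fold change was 0.81 ± 0.27 (SE, 95% confidence interval 0.18 to 1.43), with an unadjusted p-value of 0.0179 and an adjusted p-value of 0.172 in edgeR. Without tamoxifen 4 it was 0.99 with an adjusted p-value of 0.0102, and without tamoxifen 2 it was 0.56. Irf1 lies on chromosome 11 (53770014 to 53778374, plus strand), where its exons share 135 bases with Gm17334 on the other strand.

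Irf2, which encodes the competitor of IRF1, was at 86.0, 77.7 and 83.2 CPM across oil 1, 3 and 4, compared with 81.9, 84.8 and 76.0 CPM across tamoxifen 1, 2 and 4. The groups lay over each other. Its log2 fold change was -0.03 ± 0.087 (SE), and the 95% confidence interval of -0.23 to 0.18 was the narrowest of the 6 members. The gene lies on chromosome 8 (46739732 to 46847458, plus strand) and shares no exon with another annotated gene. The quotient of Irf1 over Irf2, each per kilobase, was 0.0656, 0.0902 and 0.0940 across oil 1, 3 and 4, compared with 0.141, 0.186 and 0.113 across tamoxifen 1, 2 and 4, so every library labelled tamoxifen lay above every oil library. This quotient was chosen after the values of both genes were seen and was not tested.

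Irf4 and Irf8, the members that direct lymphoid and myeloid development, were at or near 0. Irf4 had 0 counts in all 6 libraries, which allows up to 3 counts, or 0.177 CPM, in the library with the smallest total (a one-sided 95% limit for a count of 0). For Irf8 the oil libraries 1, 3 and 4 held 1, 2 and 5 counts, compared with 3, 6 and 4 counts across tamoxifen 1, 2 and 4. These counts overlap between the groups, and a difference of Irf8 was not detectable at this depth. Of 6 plasmacytoid dendritic cell markers, a cell type in which IRF8 is abundant, Siglech had 0 counts in all 6 libraries and Klk1 had 0.5 counts in oil 3 alone. Tcf4 was at 39.6 to 59.4 CPM and Bst2 at 52.8 to 93.7 CPM over all libraries, and Ccr9 was at 1.75 to 2.28 CPM in oil and 2.87 to 4.72 CPM in the libraries labelled tamoxifen, with an adjusted p-value of 0.127 in edgeR. The summed level of this list was 113 to 132 CPM in oil and 107 to 141 CPM in tamoxifen. Of 6 conventional dendritic cell markers, Clec9a, Flt3 and Cd209a had 0 counts in all 6 libraries, and Zbtb46 was at 3.65 to 5.63 CPM in oil and 2.63 to 3.25 CPM in tamoxifen. The B cell genes Ms4a1 and Pax5 also had 0 counts throughout.

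The per-library pattern of the 4 members with separate groups fell into 2 kinds. Relative to the oil mean, Irf7 was higher by 0.71, 2.28 and 0.89 on the log2 scale in tamoxifen 1, 2 and 4, and Irf9 was higher by 0.17, 0.68 and 0.24. Irf1 was higher by 0.75, 1.21 and 0.34 in the same order. For these 3 genes tamoxifen 2 was the highest library, while Irf5 differed little between libraries with 0.46, 0.45 and 0.38. With each library left out in turn, members were called only without tamoxifen 4, where Irf1, Irf5, Irf7 and Irf9 all passed the adjusted threshold. In that fit 36.3% of 11851 tested genes were called with 19.2% higher and 17.1% lower, so the 4 calls stand against a far larger background than in the fit of all 6 libraries.

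**Figure D2:**
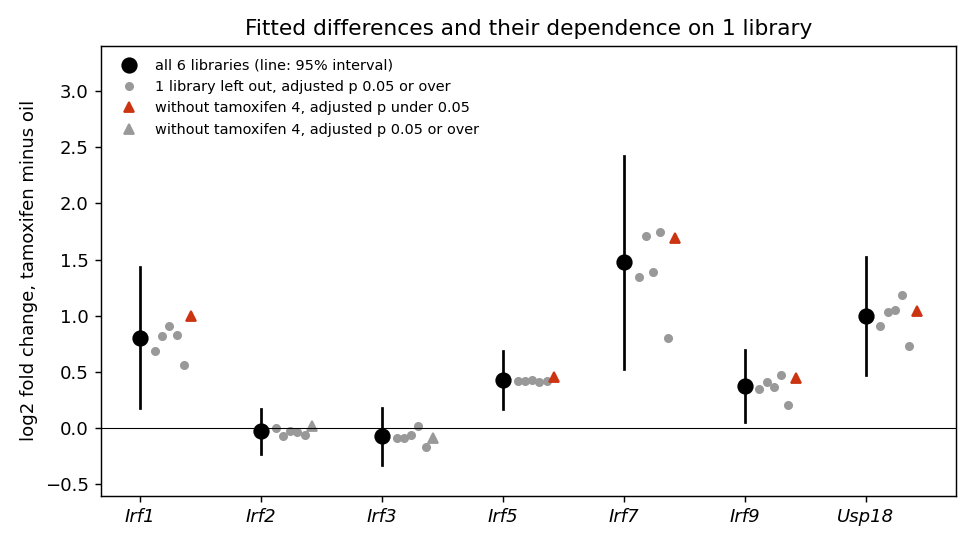
Log2 fold change of each tested Irf gene, tamoxifen against oil, with its 95% confidence interval from edgeR and the values with each library left out. The intervals of Irf1, Irf5, Irf7 and Irf9 lie above 0, those of Irf2 and Irf3 span it, and Irf7 moves most, between 0.80 without tamoxifen 2 and 1.75 without tamoxifen 1.

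Levels of different members were compared per kilobase of the longest annotated transcript. In oil the order was Irf3 at 26.3 ± 0.482, Irf9 at 21.2 ± 1.04, Irf2 at 20.8 ± 1.06, Irf5 at 6.93 ± 0.0493, Irf7 at 6.43 ± 1.72, Irf1 at 1.72 ± 0.279 and Irf8 at 0.0394 ± 0.0306 CPM per kilobase (SD, n = 3), with Irf4 at 0. Irf9 and Irf2 overlapped, as did Irf5 and Irf7, and the other neighbours were separated in all 3 oil libraries. In the treated libraries the order was Irf9 at 27.6 ± 5.51, Irf3 at 25.0 ± 3.31, Irf2 at 20.4 ± 1.13, Irf7 at 17.9 ± 11.6, Irf5 at 9.32 ± 0.258, Irf1 at 3.02 ± 0.909 and Irf8 at 0.0711 ± 0.0281 CPM per kilobase. There Irf9 overlapped with Irf3, and Irf2 with Irf7. With the length of all annotated exons in place of the longest transcript, Irf5 and Irf7 changed places in oil and Irf7 came second in tamoxifen.

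Of the summed level of the family per kilobase, Irf3 made up 30.6% to 32.1% in the oil libraries and 21.9% to 27.3% in the libraries labelled tamoxifen. Irf7 made up 6.38% to 9.86% in oil and 11.8% to 24.4% in tamoxifen. Irf9 held a nearly constant share, with 24.9% to 26.2% in oil and 26.4% to 27.0% in tamoxifen. The quotient of Irf7 over Irf3, the 2 members phosphorylated by the same kinases, was 0.200, 0.322 and 0.213 across oil 1, 3 and 4, compared with 0.490, 1.11 and 0.472 across tamoxifen 1, 2 and 4. Irf7 was thus above Irf3 per kilobase in tamoxifen 2 alone. These shares and quotients were chosen after the values were seen and are given without a test.

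**Figure D3:**
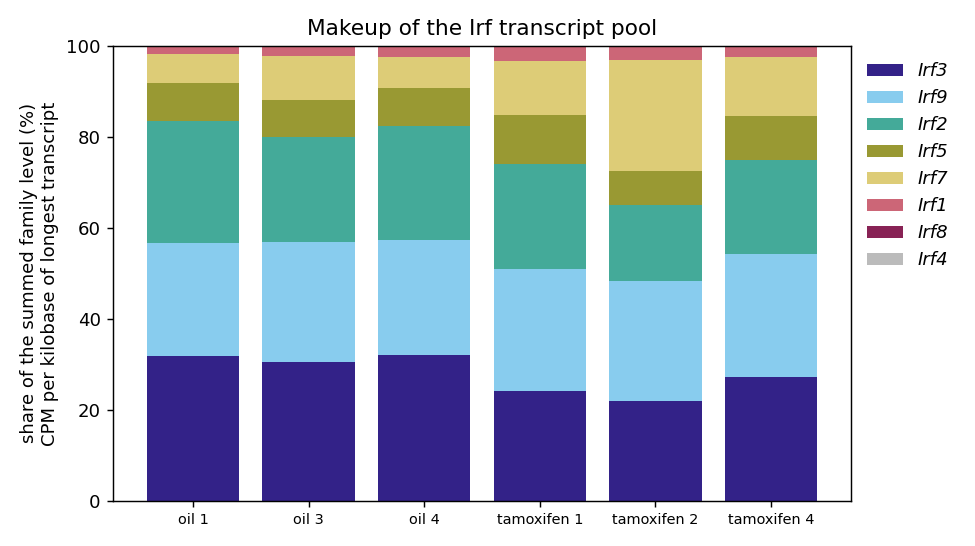
Share of each Irf gene, in percent, in the summed level of the family per kilobase of the longest transcript, in each of the 6 libraries. By this length Irf3 takes the largest share in every oil library, and the Irf7 share reaches 24.4% in tamoxifen 2 against at most 9.86% in oil.

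In the promoter windows of the family, 250 bases before to 50 bases after each annotated start, the gamma-activated site occurred in 3 of 11 windows and the response element core in 1 of 11, searched on both strands. Among all 32851 windows of the same length the shares were 8.30% and 3.44%. The matches belonged to Irf1, Irf2 and Irf8, the last with sites starting 171 and 153 bases before the start. The windows of Irf3, Irf4, Irf5, Irf7 and Irf9 held neither motif in these letters. A stretch of the Irf7 window, chr7:141266492-141266571 on the minus strand of GRCm38.p6, is printed because Irf7 differed most between the groups, and it has no capitals since it holds no match.
Irf7: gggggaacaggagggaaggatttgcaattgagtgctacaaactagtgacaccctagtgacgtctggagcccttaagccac
Irf7 itself lies on chromosome 7 (141262706 to 141266481, minus strand), and 1.19% of its exon length is shared with Phrf1 on the other strand.

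For Irf1, Irf7 and Irf9 the genes of at least 10 CPM with the most similar pattern over the 6 libraries were found from the root mean square difference of log2 CPM, centred on each gene's own mean. Nearest to Irf7, which itself spread by 0.844, were Gfod1 at 0.289, Trp53inp1, a p53-induced gene, at 0.297 and Dhx58, a regulator of RNA sensing, at 0.325. Nearest to Irf9, with a spread of 0.243, were Dram2 at 0.028, the cytokine receptor kinase Jak3 at 0.034 and Irf2bpl, a relative of the IRF2-binding proteins, at 0.05. Nearest to Irf1, with a spread of 0.44, were Syt5 at 0.047, Trex1, a nuclease for cytosolic DNA, at 0.061 and Zfas1 at 0.086. Relative to its own spread, Irf7 had no neighbour as close as those of Irf1 and Irf9.

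Of 13 tested adaptors and kinases that act upstream of IRF3, IRF5 and IRF7, 1 was called higher and none lower, beside 1.75% higher and 0.267% lower of all tested genes. The called gene was Ikbke, which encodes the kinase IKK epsilon that phosphorylates IRF3 and IRF7. It was at 13.1, 11.7 and 10.6 CPM across oil 1, 3 and 4, compared with 23.2, 24.7 and 22.2 CPM across tamoxifen 1, 2 and 4, with no overlap. Its log2 fold change was 0.98 ± 0.13 (SE) with an adjusted p-value of 0.0267 in edgeR, and the call was lost in 5 of the 6 fits that left out a library, all but that without tamoxifen 4, at an adjusted p-value of up to 0.145. Tbk1, the related kinase, had a log2 fold change of 0.27 with an adjusted p-value of 0.197. Tmem173, which encodes the DNA sensing adaptor STING, was at 8.10 to 12.3 CPM in oil and 12.7 to 24.7 CPM in tamoxifen, with an adjusted p-value of 0.109. Tbk1 and Tmem173 were chosen after their values were seen.

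The interferon genes that IRF3 and IRF7 switch on were not detected in meaningful amounts. All 20 interferon genes of the table had at most 3 counts in all libraries together, and 18 of them had 0. The exceptions were Ifne, with 2 counts in oil 3, and Ifng, with 2 counts in oil 1. For the 18 genes the same limit of 3 counts, up to 0.177 CPM, applies in each library, and the source of any interferon outside the sorted cells was not measured.

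Of the 9 interferon receptor chains, Janus kinases and STATs, all were tested and none was called in edgeR, in DESeq2 or in limma-voom. In edgeR 2 were higher and none lower at an unadjusted p-value under 0.05. Of all tested genes, 20.6% passed this threshold in either direction and 12.6% were higher. Stat2, which joins IRF9 in ISGF3, was at 38.6, 38.0 and 39.5 CPM across oil 1, 3 and 4, compared with 44.9, 64.5 and 44.3 CPM across tamoxifen 1, 2 and 4, with a log2 fold change of 0.40 and an adjusted p-value of 0.205. The groups of Stat2 did not overlap. For Tyk2 the log2 fold change was 0.20 with an adjusted p-value of 0.305.

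Among 9 tested partners and cofactors of the IRF proteins none was called in edgeR or limma-voom. DESeq2 called 1 higher, beside 8.13% of all genes in either direction. In edgeR 2 were higher and 1 lower at an unadjusted p-value under 0.05, beside 20.6% of all tested genes in either direction. Batf, which binds DNA together with IRF4 and IRF8, was at 1.58, 3.00 and 2.16 CPM across the oil libraries, compared with 5.49, 6.49 and 3.98 CPM across tamoxifen 1, 2 and 4, with a log2 fold change of 1.23 and an adjusted p-value of 0.0897. Irf2bpl had separate groups too, from 72.9 to 77.0 CPM in oil and from 87.5 to 116 CPM in tamoxifen, with an adjusted p-value of 0.151. Spi1, which encodes PU.1, the partner of IRF4 and IRF8 in myeloid cells, had a log2 fold change of 0.27 and an adjusted p-value of 0.282. The corepressors of IRF2, Irf2bp1 and Irf2bp2, were chosen after their values were seen and had log2 fold changes of -0.14 and 0.08 with adjusted p-values of 0.341 and 0.697.

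Of 9 tested genes whose products limit IRF proteins or interferon signalling, 1 was called higher in edgeR, beside 1.75% of all tested genes. DESeq2 called 2 higher, beside 8.13% of all genes in either direction, and limma-voom none. The gene called in edgeR was Socs1, the inhibitor of Janus kinases. It was at 42.3, 35.7 and 41.7 CPM across oil 1, 3 and 4, compared with 86.9, 117 and 60.2 CPM across tamoxifen 1, 2 and 4. All the libraries labelled tamoxifen lay above the oil libraries, and Socs1 had a log2 fold change of 1.14 ± 0.22 (SE), for which the edgeR adjusted p-value was 0.0438. That call too was lost without any library but tamoxifen 4, at an adjusted p-value of up to 0.209, as well as in limma-voom (adjusted p-value 0.0822) and among genes averaging at least 50 counts (0.0550). Usp18 is in the same list, with the values given above.

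The genes downstream were described by 3 lists. Of 22 tested genes with interferon-stimulated response elements, 21 had a log2 fold change above 0, beside 5809 of all 11614 tested genes. Their median was 0.70. In edgeR 13 were higher with an unadjusted p-value under 0.05, beside 12.6% of all tested genes. At the same threshold 1 was lower, and 20.6% of all tested genes passed in either direction. The lower gene was Ifit2, at 44.9 to 50.9 CPM in oil and 37.4 to 43.1 CPM in tamoxifen, chosen after its values were seen. Among the higher genes, Mx1, Mx2 and Rsad2 passed the low-count filter through the libraries labelled tamoxifen alone. Their direction was therefore set by the filter, although they enter these counts and the median. In oil neither Mx1 nor Rsad2 exceeded 0.485 CPM, against at least 0.994 and 0.988 CPM in tamoxifen. Mx1 and Rsad2 were chosen after their values were seen. Only Mx2, an antiviral GTPase, was called in edgeR. DESeq2 called 10 of the list, beside 8.13% of all genes in either direction, and limma-voom none. Mx2 had 0, 4 and 2 counts in oil 1, 3 and 4 against 22, 58.5 and 32.5 counts in tamoxifen 1, 2 and 4. In CPM these were 0, 0.194 and 0.103 against 1.21, 3.42 and 1.77, and the edgeR adjusted p-value was 0.0399. Leaving out any library but tamoxifen 4 lost this call, at an adjusted p-value of up to 0.187. Of 13 tested genes induced through IRF1, all had a log2 fold change above 0, and the median was 0.42. None was called in edgeR or limma-voom and 2 were called in DESeq2, while 8 were higher with an unadjusted p-value under 0.05, against the same backgrounds of 8.13% and 12.6%. Leading that list were Nlrc5, the activator of MHC class I genes, at 1.06, and the guanylate-binding proteins Gbp3 at 1.003 and Gbp2 at 0.89, with adjusted p-values of 0.234, 0.127 and 0.196. Of 5 tested genes regulated by IRF8 or IRF4, none was called in edgeR, DESeq2 or limma-voom. In edgeR 2 were higher at an unadjusted p-value under 0.05, beside 12.6% of all tested genes. Egr1 was at 1.06, Id2 at 0.77 and Ctsc at 0.27 on the log2 scale, with edgeR adjusted p-values of 0.275, 0.195 and 0.192.

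**Figure D4:**
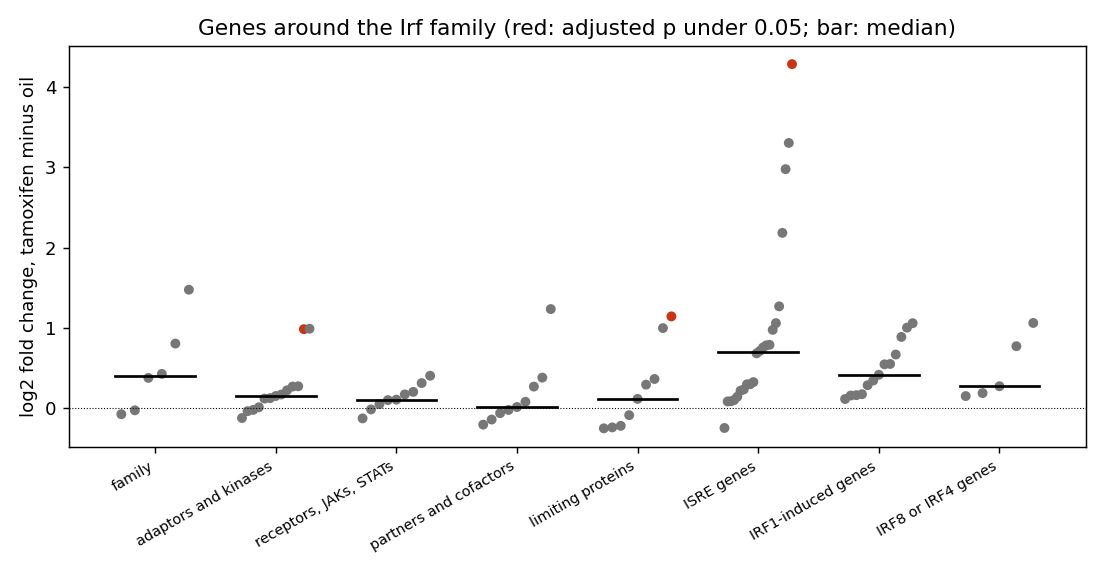
Log2 fold changes, tamoxifen against oil, of the tested genes of each list around the IRF proteins, with the genes called by edgeR marked. Ikbke, Socs1 and Mx2 are the called genes, and the medians run from 0.02 for partners and cofactors to 0.70 for genes with interferon-stimulated response elements. Mx2 passed the low-count filter through the tamoxifen libraries alone.

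Some markers of other cells also differed between the groups. The summed level of 9 macrophage and monocyte markers was 24.1 to 28.8 CPM in oil and 30.5 to 57.3 CPM in the libraries labelled tamoxifen. Most of this sum was Ccr2, at 20.2 to 23.8 CPM in oil and 20.9 to 37.8 CPM in tamoxifen. The groups of Ccr2 overlapped, with an adjusted p-value of 0.275 in edgeR. C1qb went the other way, at 0.679 to 1.13 CPM in oil and 0.439 to 1.10 CPM in tamoxifen, with overlap. In edgeR 1 of the 6 tested, Cx3cr1, was called higher, beside 1.75% of all tested genes. It was at 0.969 to 1.01 CPM in oil and 4.75 to 8.97 CPM in tamoxifen. The defining markers Adgre1 and Csf1r did not exceed 0.590 and 2.24 CPM. B and plasma cell markers summed to 0.103 to 0.675 CPM in oil and 0.718 to 2.13 CPM in tamoxifen, T and NK cell markers to at most 0.103 CPM, with 4 of 6 at 0, and neutrophil markers to at most 1.03 CPM, with S100a8 and Ly6g at 0. Erythroid markers summed to 2659 to 4046 CPM in oil and 2159 to 4968 CPM in tamoxifen, and the part of these cells and of Cd34 in the Irf values was not tested.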

How the data were processed

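RNA-seq was performed on 3 oil and 3 tamoxifen libraries. The values deposited by the authors are estimated counts for each gene symbol, made with STAR and DESeq2 on mm10 per the submitters' processing notes. The counting program, strand setting and annotation were not given in the sources used here. Counts come in steps of 0.5 and were rounded. The titles and the table number some libraries differently, so libraries carry the table's numbers. Oil 3 and tamoxifen 2 have no matching title and stand only as members of their group. All per-sample columns were used.

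Tests used edgeR 4.0.16 in R 4.3.3 (filterByExpr, TMM, quasi-likelihood F test, no block), and 11614 genes were tested with Benjamini-Hochberg adjustment over all of them. P-values measure the spread between 3 mice per group. CPM divides a count by the library's TMM-scaled sum over tested genes. No 2 libraries of the same group agreed within sampling noise, and tamoxifen 4 lay furthest from its group. The chi-square of the counts per degree of freedom was 54.1 and 65.4 for tamoxifen 4 against tamoxifen 1 and 2. It was 17.4 between tamoxifen 1 and 2 and 7.14 to 9.74 between oil libraries. Scripts were tested on simulated data. Patterns were compared on log2 CPM with a pseudocount of 0.5. Alternatives were DESeq2 size factors, the DESeq2 1.42.0 Wald test, limma-voom (limma 3.58.1), no filter, a mean of at least 50 counts, each library left out, a replicate block and another transcript length. Gene coordinates and exon overlaps are from GENCODE M21 (GRCm38), and promoters from RefSeq (GRCm38.p6), which held windows for all 8 genes. 1 further row of the symbol range and 1 listed gene are not reported here by name.

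Members, lists and tests were chosen with earlier results of these data known. Genes named are the 8 members, Usp18, the called genes of each list or otherwise at most 3 with the largest absolute log2 fold change, and the 3 genes most similar in pattern. Also named are genes that overlap a member's exons or printed promoter, the interferon genes with counts, and cell type markers. The markers were named from their lists by no fixed rule. Any other gene is marked in the text as picked with its values in view.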

Additional observations from a re-analysis of the deposited data

How the results depend on the processing

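With DESeq2 size factors within edgeR no Irf gene was called, as with limma-voom and either change of the filter. The DESeq2 Wald test called 1 Irf gene, Irf5, at a log2 fold change of 0.43. Higher and lower genes over the whole table numbered 203 and 31 in the main analysis, 713 and 231 in DESeq2, 48 and 6 in limma-voom, 372 and 61 without a filter and 120 and 17 at a mean of at least 50 counts. Genes of the pathway lists called higher numbered 3 in the main analysis, 17 in DESeq2, 1 in limma-voom, 9 without a filter, 1 at a mean of at least 50 counts and 6 with the replicate block. With each library left out, the table held 8 to 2278 higher and 0 to 2024 lower genes, the Irf genes called numbered 0 to 4, and the list genes called numbered 0 to 41 higher and 0 to 3 lower. The upper ends came without tamoxifen 4. Leave-one-out log2 fold changes ran from 0.56 to 0.99 for Irf1, -0.069 to 0.019 for Irf2, -0.17 to 0.023 for Irf3, 0.41 to 0.45 for Irf5, 0.80 to 1.75 for Irf7, 0.20 to 0.47 for Irf9 and -0.038 to 0.17 for Irf2bp2, so Irf2, Irf3 and Irf2bp2 changed sign, all within their intervals. The replicate block, which only numbers 1 and 4 allow and which leaves 1 residual degree of freedom, called 1 Irf gene, Irf7 at 1.04 (edgeR adjusted p-value 0.00238), gave -0.072 for Irf2bp2, and called 215 genes higher and 26 lower. The deviations from the group means had a correlation of -0.15 between the libraries numbered 1 and of 0.075 between those numbered 4, so no pairing was assumed. With the length of all annotated exons, the level in CPM per kilobase in oil and tamoxifen was 0.925 and 1.62 for Irf1, 11.1 and 10.9 for Irf2, 15.5 and 14.7 for Irf3, 5.34 and 7.19 for Irf5 and 15.2 and 19.8 for Irf9, and Irf8 was at 0.0350 in tamoxifen. Apart from the construction of these alternatives, the cause was not tested. Depth limits Irf4, Irf8 and the interferon genes, which lay at or near the floor of 3 counts.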
